A study of Mus musculus with 36 samples.

Results

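The 10 brown and beige fat genes Ucp1, Cidea, Dio2, Elovl3, Ppargc1a, Prdm16, Cpt1b, Kcnk3, Adrb3 and Ppargc1b were followed through visceral white adipose tissue (visWAT). They were picked by gene symbol from a table of 56748 genes, and each symbol matched 1 protein-coding gene. RNA was sequenced from the epididymal fat and the liver of the same 18 male C57BL/6J mice, 36 libraries in all, with no pooling of animals. Mlkl Adi-KO mice carried loxP-flanked Mlkl alleles and an Adipo-Cre transgene active in mature adipocytes, so that other cells of the fat pad kept the gene, and WT mice were littermates with the loxP-flanked alleles and no Cre. Diets began at 16 weeks of age and lasted 16 weeks, either normal chow diet (NCD, 4 mice per genotype) or lipid-rich high-fat diet (HFD, 5 mice per genotype). Values are FPKM, a read density scaled to gene length and library size, and mice are called by the numbers on their labels.

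Brown adipocytes burn fuel for heat. UCP1, in the inner mitochondrial membrane, lets protons return without making ATP, so that the respiratory chain runs fast and the energy leaves as heat. Noradrenaline starts the program through β-adrenergic receptors and cyclic AMP, which release fatty acids and induce Ucp1, Dio2 and Ppargc1a. White fat depots can gain beige adipocytes that use the same genes, a change called browning, and the epididymal depot of the mouse is known as one of the more resistant to it. Respiratory chain genes alone do not mark browning, since every adipocyte with mitochondria expresses them. The question put to the data was therefore whether the members moved together with the respiratory chain or apart from it.

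Reads on genes ranged from 21580696 to 30322171 per visWAT library, where 3 reads of Ucp1 equalled 0.0455 to 0.0677 FPKM. Mature adipocyte markers were abundant in every visWAT library, with summed levels of 16 genes between 7612 and 28571 FPKM and none at 0. Mlkl itself read 1.96 to 2.72 FPKM in the 9 Mlkl Adi-KO libraries and 3.91 to 6.28 FPKM in 8 of the 9 WT libraries. The library labelled WT NCD mouse 182 read 2.29 FPKM of Mlkl (143 reads), inside the Mlkl Adi-KO range, and it also carried most of the Ucp1 seen in the series, so that its values are given apart and each result that rests on it is given with and without it. In the library of WT NCD mouse 183, 6 seminal vesicle genes took 18.5% of the reads.

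The upstream sequences of the members whose start lies in the sequence table are shown because Ucp1, Dio2 and Ppargc1a are known cyclic AMP targets, and Prdm16 is shown beside them as a regulator of the same program. Sequences from RefSeq (a table on GRCm38.p6) were found for 4 of the 10 members. The 250 bases before each start site were located by exact match in GRCm39 (mm39), at chr8:84016727-84016976 (plus strand) for Ucp1, chr12:90705813-90706062 (minus strand) for Dio2, chr5:51725068-51725317 (minus strand) for Ppargc1a and chr4:154721331-154721580 (minus strand) for Prdm16. They read 5′ to 3′ along the gene, and capitals mark a cyclic AMP response element, either the full TGACGTCA or the half-site TGACG on either strand.
Ucp1: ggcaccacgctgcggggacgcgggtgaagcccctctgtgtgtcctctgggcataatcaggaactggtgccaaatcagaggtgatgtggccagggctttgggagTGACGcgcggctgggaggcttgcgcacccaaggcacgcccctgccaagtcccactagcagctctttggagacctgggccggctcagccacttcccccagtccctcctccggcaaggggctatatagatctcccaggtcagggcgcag
Dio2: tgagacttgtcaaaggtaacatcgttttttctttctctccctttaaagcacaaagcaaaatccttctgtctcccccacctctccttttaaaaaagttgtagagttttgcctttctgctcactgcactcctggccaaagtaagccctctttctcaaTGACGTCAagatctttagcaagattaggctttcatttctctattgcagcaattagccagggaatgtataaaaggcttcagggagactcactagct
Ppargc1a: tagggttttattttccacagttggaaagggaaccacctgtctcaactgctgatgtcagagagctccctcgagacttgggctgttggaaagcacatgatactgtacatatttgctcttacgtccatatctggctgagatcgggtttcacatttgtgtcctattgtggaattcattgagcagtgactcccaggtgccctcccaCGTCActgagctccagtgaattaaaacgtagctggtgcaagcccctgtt
Prdm16: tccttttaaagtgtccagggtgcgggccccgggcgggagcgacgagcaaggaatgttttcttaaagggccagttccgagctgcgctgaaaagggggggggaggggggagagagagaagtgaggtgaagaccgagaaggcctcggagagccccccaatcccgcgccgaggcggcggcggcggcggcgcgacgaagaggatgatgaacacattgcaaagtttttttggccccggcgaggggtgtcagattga
The full element stood in Dio2 at bases -95 to -88, counted back from the start site, and in 1.56% of 32536 regions of the same length. A half-site stood in Ucp1 at -147 to -143 on the plus strand of the gene and in Ppargc1a at -49 to -45 on the opposite strand, and 17.9% of all regions held one, the full elements included. Prdm16 held neither. The estrogen-related receptor element TCAAGGTCA, which occurred in 0.375% of regions on either strand, was in none of the 4. The absence of a match says only that these letters are not in this window. No upstream sequence is shown for Cidea, Elovl3, Cpt1b, Kcnk3, Adrb3 and Ppargc1b.

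**Figure D1:**
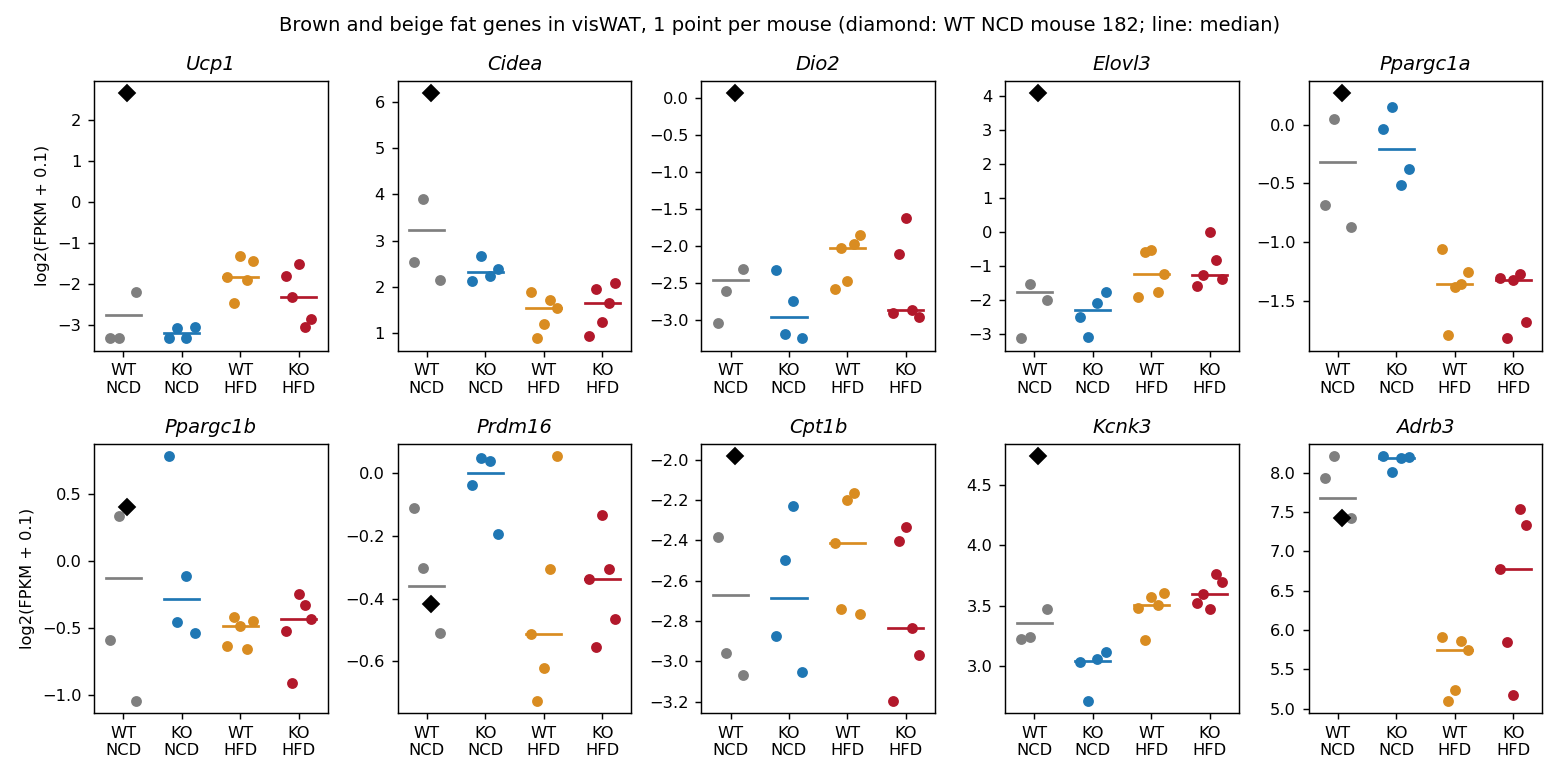
Level of each member in each visWAT library, as log2(FPKM + 0.1), by genotype and diet (KO, Mlkl Adi-KO). Points are mice, lines are medians over all mice of a group, and the black diamond is WT NCD mouse 182. On the FPKM scale it lies highest for 7 of the 10 genes, Ucp1 at 6.23 FPKM among them, but not by reads for Ppargc1a and Cpt1b. Axes differ between genes.

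Adrb3, the β3-adrenergic receptor by which noradrenaline reaches fat cells (chromosome 8, 27715804 to 27740644 on the minus strand), was by far the most abundant member in visWAT. It read 245, 296, 172 and 172 FPKM in WT NCD mice 165, 180, 182 and 183. In Mlkl Adi-KO NCD mice 166, 179, 197 and 199 it read 297, 259, 291 and 294 FPKM. Chow-fed fat of both genotypes thus lay above 170 FPKM, mouse 182 included. After HFD the level was 60.3, 34.1, 37.7, 58.3 and 53.4 FPKM in WT mice 154, 155, 161, 162 and 164. In Mlkl Adi-KO HFD mice 151, 152, 153, 156 and 157 it was 110, 57.5, 36.0, 186 and 161 FPKM. Mice 151, 156 and 157 stood above all WT HFD mice, while 152 and 153 lay within the WT range.

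Kcnk3, a potassium channel that sets the resting membrane potential of adipocytes (chromosome 5, 30745514 to 30782615, plus strand), came next. Its level was 9.24, 9.37, 26.6 and 11.03 FPKM in WT NCD mice 165, 180, 182 and 183. In the 4 Mlkl Adi-KO NCD mice it ranged from 6.45 to 8.58 FPKM, below every WT NCD mouse. WT HFD mice ranged from 9.21 to 12.1 FPKM and Mlkl Adi-KO HFD mice from 10.99 to 13.5 FPKM, which overlap.

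Cidea encodes a lipid droplet protein that is high in brown fat (chromosome 18, 67476674 to 67500855, plus strand). It read 5.70, 14.9, 72.5 and 4.33 FPKM in WT NCD mice 165, 180, 182 and 183, and 4.24 to 6.28 FPKM in Mlkl Adi-KO NCD mice. On HFD it read 3.61, 1.75, 2.20, 3.20 and 2.80 FPKM in WT mice 154, 155, 161, 162 and 164. Mlkl Adi-KO HFD mice 151, 152, 153, 156 and 157 had 1.83, 3.76, 2.26, 3.04 and 4.13 FPKM. The genotypes overlap on both diets, and both HFD groups lie below every chow-fed mouse.

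Ucp1, the uncoupling protein (chromosome 8, 84016981 to 84025081, plus strand), was near the limit of detection outside mouse 182. WT NCD mice 165, 180, 182 and 183 had 0, 0, 6.23 and 0.120 FPKM, from 0, 0, 276 and 6 reads. The 4 Mlkl Adi-KO NCD mice had 0 or 1 read each, at most 0.0211 FPKM. WT HFD mice 154, 155, 161, 162 and 164 had 0.181, 0.0821, 0.303, 0.169 and 0.273 FPKM, from 4 to 20 reads. Mlkl Adi-KO HFD mice 151, 152, 153, 156 and 157 had 0.186, 0.1004, 0.254, 0.0207 and 0.0381 FPKM, from 10, 6, 15, 1 and 2 reads. None of the 5 Mlkl Adi-KO HFD mice exceeded the highest WT HFD mouse, and 2 lay below the lowest. A library listed at 0 allows up to 3 reads.

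The regulators of the program were present at low levels. Ppargc1a encodes the coactivator PGC-1α, which drives mitochondrial biogenesis and Ucp1 transcription (chromosome 5, 51611592 to 51725068, minus strand). It ranged from 0.446 to 1.10 FPKM in WT NCD, 0.602 to 1.01 in Mlkl Adi-KO NCD, 0.188 to 0.380 in WT HFD and 0.183 to 0.314 in Mlkl Adi-KO HFD. Every HFD mouse was thus below every NCD mouse. Its relative Ppargc1b, encoding PGC-1β (chromosome 18, 61431207 to 61533502, minus strand), ranged from 0.385 to 1.62 FPKM on NCD and from 0.432 to 0.743 FPKM on HFD. Prdm16, the regulator of brown and beige adipocyte identity (chromosome 4, 154400582 to 154721330, minus strand), stayed between 0.504 and 0.938 FPKM in all 18 libraries.

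The remaining enzymes were sparse as well. Dio2, the member with the full cyclic AMP element in the window shown, makes active thyroid hormone inside brown fat (chromosome 12, 90691326 to 90705812, minus strand), and it read 0.950 FPKM in mouse 182 and at most 0.225 FPKM elsewhere. Elovl3 elongates very long fatty acids (chromosome 19, 46120336 to 46124133, plus strand), and it read 16.7 FPKM in mouse 182 and at most 0.898 FPKM elsewhere. Cpt1b, the muscle form of the enzyme that carries fatty acids into mitochondria (chromosome 15, 89300608 to 89310066, minus strand), never exceeded 0.153 FPKM or 16 reads in visWAT.

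The comparison of Mlkl Adi-KO with WT mice on HFD asks what loss of Mlkl in adipocytes changes under dietary stress. No brown or beige member passed the test, while nuclear-encoded genes of the respiratory chain lay above 0 almost as a block, none passing by limma or edgeR and 7 of 80 by DESeq2. With limma on log2(FPKM + 1), 5 members were abundant enough to be tested (Cidea, Prdm16, Kcnk3, Adrb3 and Ppargc1b) and 0 were called, against 3 of 13963 genes (0.0215%). Only Adrb3 had an unadjusted p under 0.05, as did 21.5% of all genes. edgeR on genes with at least 10 reads, which tested all 10 members, called 0, against 0.013% of 23116 genes, and 1 member had an unadjusted p under 0.05. DESeq2 called 0 of 5.

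Among the 5 tested members Adrb3 had the largest difference. Adrb3 averaged 110 ± 64.4 FPKM (SD, n = 5) without adipocyte Mlkl and 48.7 ± 12.1 FPKM (n = 5) with it, a ratio of 2.26. Its log2 fold change was 0.95 with SE 0.42 and limma adjusted p = 0.231, the exact permutation p was 0.0952, and DESeq2 gave adjusted p = 0.0697. Cidea averaged 3.004 ± 0.972 against 2.71 ± 0.748 FPKM, a log2 fold change of 0.10 with SE 0.19. Kcnk3 averaged 12.1 ± 1.02 against 11.1 ± 1.11 FPKM, a log2 fold change of 0.12 with SE 0.08. The log2 fold change was 0.02 both for Prdm16 and for Ppargc1b. All 5 lay above 0, against 49.8% of all genes tested, but on the TPM scale Prdm16 and Ppargc1b lay below 0. These are bulk samples, in which fewer cells of a type and less RNA per cell cannot be told apart.

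Ucp1 and the other members below the filter averaged lower in Mlkl Adi-KO mice, except Elovl3, and none of them passed. Ucp1 averaged 0.120 ± 0.0991 FPKM without and 0.202 ± 0.0883 FPKM with adipocyte Mlkl, a ratio of 0.594 (two-sided exact permutation p = 0.214, edgeR adjusted p = 0.540). The mean ratio was 0.725 for Dio2, 0.899 for Ppargc1a and 0.622 for Cpt1b, and 1.19 for Elovl3. Among these 5 the edgeR log2 fold change farthest from 0 was the -0.71 of Ucp1. With so few reads, a difference of Ucp1 smaller than the spread between mice was not detectable at this depth. The 2 genotypes did not separate for any of the 10 members.

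The respiratory chain is given beside the members, with no test of a difference between the lists. The 80 nuclear-encoded genes were subunits, cytochrome c (Cycs) and the ATP synthase inhibitor Atpif1. Of these, 77 had a log2 fold change above 0, with a median of 0.26 beside a median of -0.000655 over all genes tested. The count was also 77 on the TPM scale. limma called 0 of the 80, 65 had an unadjusted p under 0.05, and DESeq2 called 7, all higher. In 11 of the 80 every Mlkl Adi-KO mouse was above every WT mouse, against 1.42% of all genes. Of the members 0 of 5 did so, a number too small to set against that share. By complex, 37 of 37 genes lay above 0 for complex I (median 0.30), 4 of 4 for complex II (0.20), 10 of 10 for complex III (0.24), 11 of 12 for complex IV (0.31) and 15 of 17 for ATP synthase (0.21). The 2 with the smallest p were Ndufs6, a complex I subunit (log2 fold change 0.38), and Atp5k, an ATP synthase subunit (0.43), both with limma adjusted p = 0.221. All 13 mitochondrially encoded genes also lay above 0 (median 0.37), with 0 called, 6 at an unadjusted p under 0.05, and mt-Nd3 (0.91) and mt-Co3 (0.41) those with the smallest p.

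Genes that act beside the members gave no such block. Of 36 other brown and beige fat genes, 26 were tested, 14 lay above and 12 below 0, the median was 0.04 (below 0, at -0.01, on the TPM scale) and none was called, with 5 at an unadjusted p under 0.05. The 2 with the smallest p were both lower, Epsti1 (-0.50) and Ehmt1, a histone methyltransferase that works with PRDM16 (-0.14). A list of 17 genes for heat production without UCP1 held genes of creatine, calcium and lipid cycling. It also held Pm20d1 and the mitochondrial carriers Slc25a1, Slc25a4 and Slc25a5. Of the 17, 11 were tested, with 5 above and 6 below 0 and none called. The smallest p among them belonged to Alpl, a phosphatase of the creatine cycle (0.26), and Gatm, an enzyme of creatine synthesis (-0.60). Of 27 β-adrenergic and cyclic AMP signaling genes beside the members, 25 were tested, with 13 above and 12 below 0, none called and 9 at an unadjusted p under 0.05. The smallest p there belonged to Prkacb, a catalytic subunit of protein kinase A (-0.32), and Mapk14, the kinase p38α (-0.16).

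**Figure D2:**
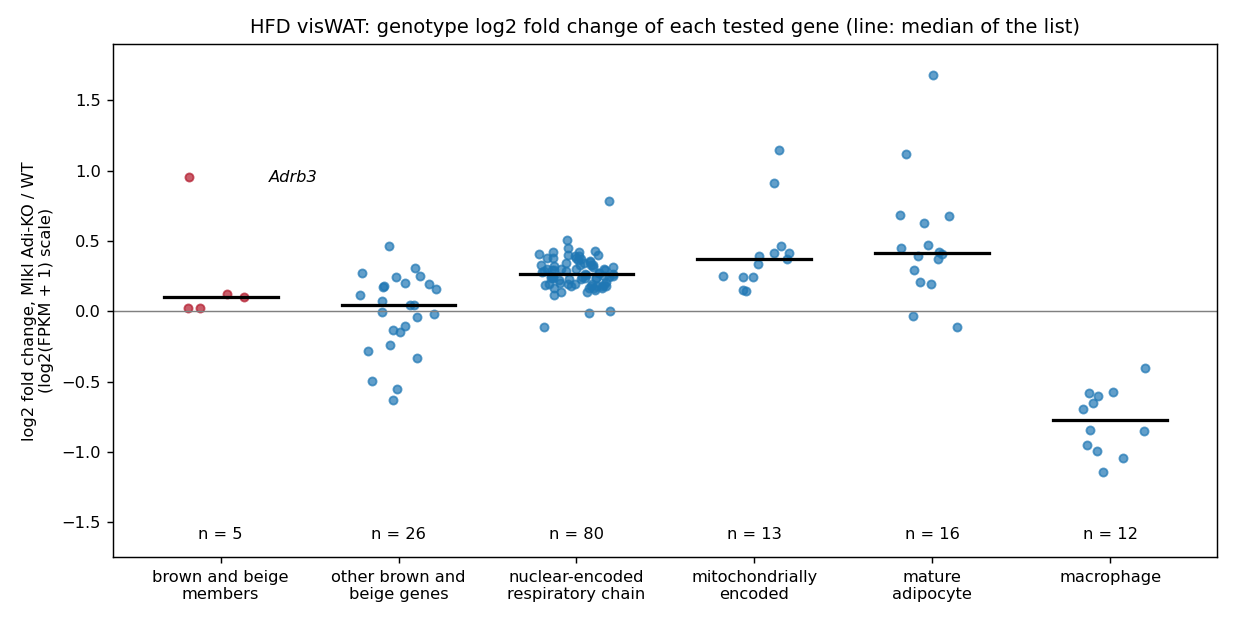
Log2 fold change of Mlkl Adi-KO over WT in HFD-fed visWAT for each tested gene of 6 gene lists, on the log2(FPKM + 1) scale, with black lines at the list medians. The 80 respiratory chain genes center on 0.26 and the 26 other brown and beige genes on 0.04 (-0.01 on the TPM scale). Among the 5 tested members Adrb3 (0.95) stands apart, and Prdm16 and Ppargc1b (both 0.02) change sign on the TPM scale.

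Cell markers moved in the same comparison. Of 16 mature adipocyte markers 14 lay above 0 (median 0.41), Adipoq (0.68) and Cidec (0.39) with the smallest p, and all 12 macrophage markers lay below 0 (median -0.77), Mrc1 (-0.58) and Csf1r (-0.69) with the smallest p. None of these 28 genes was called by limma. Summed over the 12 macrophage genes, the level ranged from 1816 to 2647 FPKM in WT and from 677 to 2392 FPKM in Mlkl Adi-KO mice. Summed over the 16 adipocyte genes it ranged from 7612 to 9649 FPKM in WT and from 8566 to 18643 FPKM in Mlkl Adi-KO mice. The part of these shifts in the Adrb3 and respiratory chain values was not tested.

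From mouse to mouse the 3 readouts singled out the same animals. The mean log2(FPKM + 1) of the 80 respiratory chain genes was 5.34, 5.50, 5.43, 5.43 and 5.40 in WT HFD mice 154, 155, 161, 162 and 164. It was 5.77, 5.45, 5.55, 5.79 and 5.90 in Mlkl Adi-KO HFD mice 151, 152, 153, 156 and 157. Mice 151, 156 and 157 were apart from the other 7 HFD mice, and they were also the 3 with the highest Adrb3 and the highest adipocyte markers, with mean levels of 8.95, 9.18 and 9.37 against 8.06 to 8.48 in the rest. Their macrophage marker means, 5.39, 4.51 and 4.25, were the lowest of the 10 mice, the others lying between 5.75 and 6.28. Ucp1 in the same 3 mice was 0.186, 0.0207 and 0.0381 FPKM, and the last 2 values were the lowest on HFD. Cidea in them was 1.83, 3.04 and 4.13 FPKM, from near the lowest to the highest of the 10 mice.

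Since the mice formed 2 clusters on the respiratory chain mean, no correlation over all 10 is given. Within the 7 mice of the lower cluster, from 5.34 to 5.55, none of the 10 members was related to it after Benjamini-Hochberg adjustment over the 10. Elovl3 was closest, with Pearson r = 0.84 (exact permutation p = 0.0179, adjusted 0.179) and Spearman rho = 0.61 (exact permutation p = 0.167), and r was 0.81 without the 2 mice farthest from the median. For Ucp1 r was -0.12 (exact permutation p = 0.791, adjusted 0.987) and rho was -0.43 (exact permutation p = 0.354). For Adrb3 r was -0.73 (exact permutation p = 0.0651, adjusted 0.217) and rho -0.68 (exact permutation p = 0.110), with r = -0.30 without 2 mice.

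**Figure D3:**
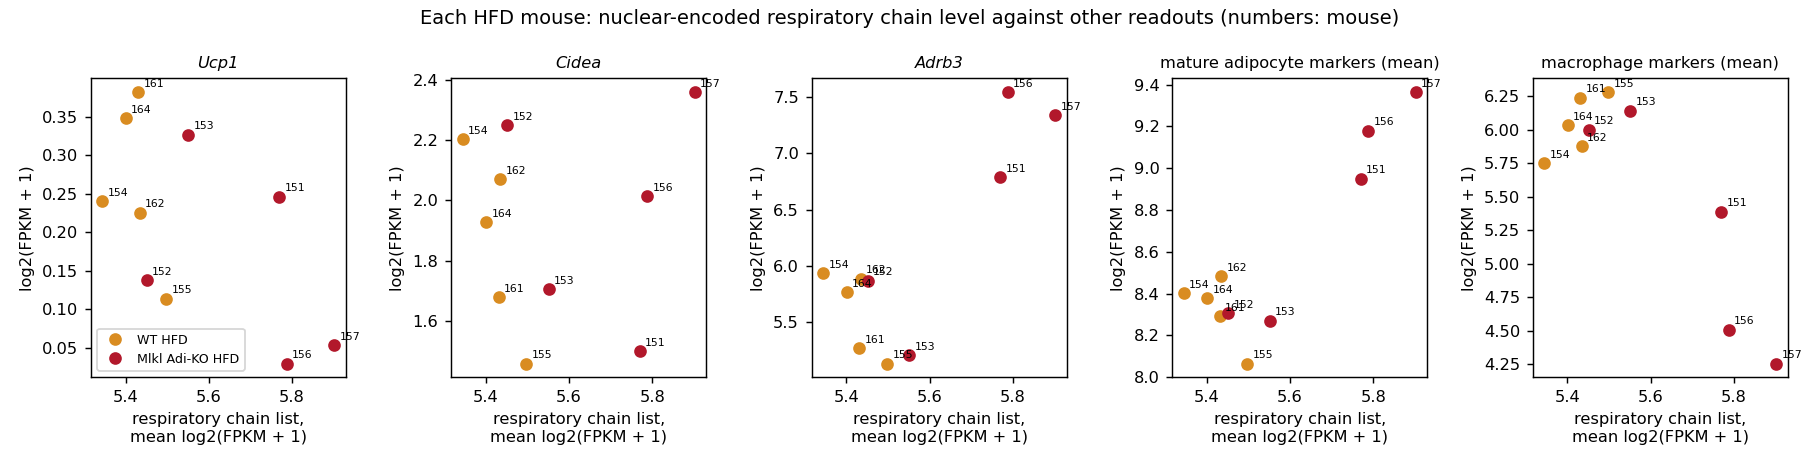
Each HFD mouse by the mean log2(FPKM + 1) of 80 nuclear-encoded respiratory chain genes (horizontal) and by Ucp1, Cidea, Adrb3, the mean of 16 mature adipocyte markers or the mean of 12 macrophage markers (vertical, log2(FPKM + 1)). Mlkl Adi-KO mice 151, 156 and 157 lie apart at 5.77 to 5.90, with the highest Adrb3 and adipocyte markers and the lowest macrophage markers, whereas Ucp1 in 156 and 157 is the lowest of the 10.

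On NCD the genotype comparison called none of the members. limma tested 8 of them, Ucp1 and Elovl3 only because of mouse 182, and called 0, as it called 0 of 14063 genes (0%). At an unadjusted p under 0.05 limma had 0 members and 528 genes. edgeR on genes with at least 10 reads tested 10 and called 0, as it did over 22772 genes (0%), with 4 members (Ucp1, Cidea, Elovl3 and Kcnk3) and 1202 genes at an unadjusted p under 0.05, and of the members only Kcnk3 without mouse 182. DESeq2 called 0 members and 8 genes. Kcnk3 was the member that separated the genotypes, at 7.84 ± 0.948 FPKM without and 14.1 ± 8.41 FPKM with adipocyte Mlkl (n = 4 each, log2 fold change -0.64 with SE 0.30, limma adjusted p = 0.916). The exact permutation p of 0.0286 is the smallest that 4 against 4 mice allow, and 0.59% of genes were lower in this non-overlapping way.

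Without mouse 182 the separation of Kcnk3 held with a smaller difference. The WT mean was then 9.88 ± 0.996 FPKM (n = 3) and the log2 fold change -0.30 (limma adjusted p = 0.885, exact permutation p = 0.0571, the smallest possible with 4 against 3), where 1.64% of genes were lower without overlap. On the TPM scale it then read 0.06. Cidea had a log2 fold change of -1.25 with mouse 182 and -0.46 without it. Ucp1 averaged 1.59 ± 3.09 FPKM in the WT group with mouse 182 and 0.0399 ± 0.0691 FPKM without it, beside 0.0102 ± 0.0118 FPKM in Mlkl Adi-KO. Adrb3 read 0.40 and, without mouse 182, 0.29. Of the 8 members 4 lay above 0, against 53.8% of all genes, but Ucp1 and Elovl3 were among the 8 only through mouse 182. Without it limma tested 6 members, with Ppargc1a, Prdm16, Adrb3 and Ppargc1b above 0 and Cidea and Kcnk3 below. Of all genes 56.9% then lay above 0. Of the 80 respiratory chain genes 9 lay above 0, 66 did so without mouse 182, and all 80 did so on the TPM scale, which shifted the median of all genes by 0.27. limma called none of them in any of these settings, and with or without mouse 182 it gave 0 of 80 an unadjusted p under 0.05. Of 24 other brown and beige genes tested 7 lay above 0 (10 of 22 without mouse 182, and 15 of 23 on the TPM scale), with none called, 1 at an unadjusted p under 0.05, and Ebf2 (0.50) and Epsti1 (0.24) those with the smallest p.

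HFD against NCD in WT mice, a comparison that shares its mice with the genotype comparisons above, asks what the diet itself did to the program. Cidea and Adrb3 fell, and Ppargc1a fell where its reads were tested, while Ucp1 did not pass. limma tested 7 members and called 2, both lower, against 15.8% of 14161 genes called lower. Adrb3 averaged 221 ± 60.3 FPKM on NCD and 48.7 ± 12.1 FPKM on HFD, a log2 fold change of -2.16 with SE 0.23 and limma adjusted p = 8.05e-05. Cidea averaged 24.4 ± 32.4 FPKM on NCD and 2.71 ± 0.748 FPKM on HFD, a log2 fold change of -1.97 with SE 0.67 and limma adjusted p = 0.0432. For both genes all 5 HFD mice were below all 4 NCD mice (exact permutation p = 0.0159, the smallest possible with 5 against 4), as for 13.8% of genes. The call of Cidea was lost on the TPM scale (limma adjusted p = 0.0713), on which the median of all genes shifted by 0.35, with no filter (0.0878), and without any 1 of the 5 HFD mice or NCD mouse 180 (limma adjusted p from 0.0635 to 0.0941). edgeR on genes with at least 10 reads called 3 of 10 lower, against 14.1% of 23190 genes, the third being Ppargc1a, at 0.750 ± 0.318 FPKM on NCD and 0.292 ± 0.0695 FPKM on HFD (log2 fold change -1.39, edgeR adjusted p = 0.00633).

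With and without mouse 182, the sign differed for Ucp1, Elovl3, Dio2 and Kcnk3 in this comparison, and it held for the other members. Without it limma tested 5 members and again called Cidea (8.30 ± 5.73 to 2.71 FPKM, log2 fold change -1.18, adjusted p = 0.0222, or 0.155 on the TPM scale) and Adrb3 (-2.27, adjusted p = 0.000162), against 18.8% of 14196 genes lower. edgeR without it called the same 3 members lower, against 15.9% of 22889 genes, with Ppargc1a at -1.14 (adjusted p = 0.0137). Ucp1 had an edgeR log2 fold change of -2.99 with mouse 182 and 2.27 without it (adjusted p = 0.125), the latter from 57 reads in 5 HFD mice against 6 reads in 3 NCD mice. Per library size this was a ratio of 5.51, with an exact 95% interval of 2.38 to 15.6 that covers counting error only. Elovl3 likewise had -3.57 with and 1.42 without mouse 182 (edgeR adjusted p = 0.180 without it). Kcnk3 had a limma log2 fold change of -0.19 with it and 0.15 without it, and Dio2 an edgeR value of -1.21 with it and 0.96 without it.

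Most respiratory chain genes were also lower in WT mice on HFD, in a way that depended on scaling. Of the 80 genes 76 lay below 0 (median -0.45), and limma called 38 lower and 1 higher, or 43 lower and 1 higher without mouse 182. Over all genes limma called 15.8% lower and 21.9% higher, or 18.8% lower and 23.8% higher without mouse 182. These shares belong beside the counts of the other lists and of the cell markers below. The largest changes among those called were Sdha, a complex II subunit (-1.05), Atpif1, the inhibitor of ATP synthase (1.0), and Uqcrfs1 (-0.86) and Uqcrc2 (-0.85), subunits of complex III. On the TPM scale 42 of the 80 lay above 0, 2 were called, both higher, and the list median of 0.02 lay 0.32 below the median of all genes (0.34). That scale divides each library by its FPKM sum, which was 564718 in WT NCD mouse 183 and at most 309820 in other visWAT libraries. Seminal vesicle genes made up 255949 FPKM of the sum in mouse 183. The part of this library in the TPM values was not tested. Of the 13 mitochondrially encoded genes 9 were called lower, mt-Nd4l (-2.02) the most, and 2 on the TPM scale. Among 26 other brown and beige genes tested, 5 were called higher and 4 lower, close to the shares over all genes. Those with the largest change were Cox6a2 at 2.0, the nucleoside transporter Slc29a1 at 1.09, Epsti1 at 1.09 and the secreted factor Nrg4 at -0.79. Without mouse 182 the counts were 10 higher and 4 lower of 25. Of 11 genes of UCP1-independent heat cycles tested, 3 were called higher and 1 lower, with the creatine genes Ckb at 1.62, Gatm at 1.40 and Gamt at 0.72 and the ADP/ATP carrier Slc25a4 at -0.26. Of 25 β-adrenergic and cyclic AMP genes 5 were called higher and 4 lower, again close to those shares. Those with the largest change were the adenylyl cyclases Adcy7 at 2.45, Adcy5 at 1.16 and Adcy3 at 1.11 and the phosphodiesterase Pde3b at -1.18.

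Cell markers moved in this comparison too. Mature adipocyte markers were called lower in 9 of 16 and higher in 1, their summed level going from 16280 to 28571 FPKM on NCD to 7612 to 9649 FPKM on HFD. Macrophage markers were called higher in 12 of 12 (median 2.57), their summed level going from 196 to 297 FPKM to 1816 to 2647 FPKM. The part of these marker shifts in the lower Cidea, Adrb3 and Ppargc1a was not tested.

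In Mlkl Adi-KO mice, a comparison that shares no animal with the WT comparison, Cidea and Adrb3 were lower and Kcnk3 was higher on HFD. limma tested 5 members. It called 2 lower, against 20.3% of 14026 genes, and 1 higher, against 23.3%. Cidea averaged 5.07 ± 0.881 FPKM on NCD and 3.004 ± 0.972 FPKM on HFD (log2 fold change -0.62, SE 0.18, limma adjusted p = 0.0212, or 0.0614 without Mlkl Adi-KO NCD mouse 179 and 0.354 in 1 limma fit over all 18 mice). Adrb3 averaged 285 ± 17.6 and 110 ± 64.4 FPKM (-1.61, SE 0.44, limma adjusted p = 0.0167). Kcnk3 averaged 7.84 ± 0.948 and 12.1 ± 1.02 FPKM (0.58, SE 0.09, limma adjusted p = 0.00122). The groups did not overlap for any of the 3 (exact permutation p = 0.0159, the smallest possible), as they did not for 18.3% of genes in the lower and 20.1% in the higher direction. Prdm16 averaged 0.877 ± 0.0735 and 0.684 ± 0.0879 FPKM, with limma adjusted p = 0.0781 and DESeq2 adjusted p = 0.0139.

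edgeR on genes with at least 10 reads called 3 of 10 members higher, against 15.6% of 23025 genes, and 3 lower, against 14.1%. Ucp1 was among the higher ones, at 0.0102 ± 0.0118 FPKM on NCD and 0.120 ± 0.0991 FPKM on HFD (edgeR adjusted p = 0.0303). This rests on 2 reads in 4 mice against 34 reads in 5 mice, a ratio per library size of 12.9 with an exact 95% interval of 3.30 to 111 for counting error only. Elovl3 was at 0.105 ± 0.0754 and 0.439 ± 0.2705 FPKM (edgeR log2 fold change 2.04, adjusted p = 0.03), and every HFD mouse was above every NCD mouse. Ppargc1a was at 0.788 ± 0.186 and 0.262 ± 0.0603 FPKM (-1.58, edgeR adjusted p = 0.000933), again without overlap. At this level each Mlkl Adi-KO HFD library held 15 Ucp1 reads or fewer. All 12 macrophage markers lay above 0 in this comparison too (10 called), their summed level going from 256 to 436 FPKM on NCD to 677 to 2392 FPKM on HFD. Mature adipocyte markers were called lower in 6 of 16 and higher in 2, their summed level going from 22654.5 to 27612 FPKM on NCD to 8566 to 18643 FPKM on HFD. The part of both marker lists in these values was not tested.

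Of the 80 respiratory chain genes, 2 were called higher and 12 lower in these mice (31 above and 49 below 0). Both counts are below the shares over all genes, 23.3% called higher and 20.3% lower. The same shares belong beside the limma counts of the other lists below and of the cell markers above. Sdha (-0.73), Ndufs1 (-0.52) and Uqcrc2 (-0.52) were among the lower ones and Atpif1 (0.98) among the higher ones. On the TPM scale 27 were called, 5 higher and 22 lower. Of 28 other brown and beige genes tested, 9 were called higher and 5 lower, with the proton channel Otop1 at 1.37, Cox6a2 at 1.25, Cox7a1 at 0.95 and the brown preadipocyte factor Ebf2 at -1.04. Of the 13 mitochondrially encoded genes 8 were called lower. Of 11 genes of the heat cycle list tested 3 were called higher and 1 lower, with the creatine transporter Slc6a8 at 1.08 and the mitochondrial citrate carrier Slc25a1 at -0.49. Of 25 β-adrenergic and cyclic AMP genes 4 were called higher and 7 lower, with Adcy7 at 1.41, Adcy5 at 1.27 and Pde3b at -1.15.

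**Figure D4:**
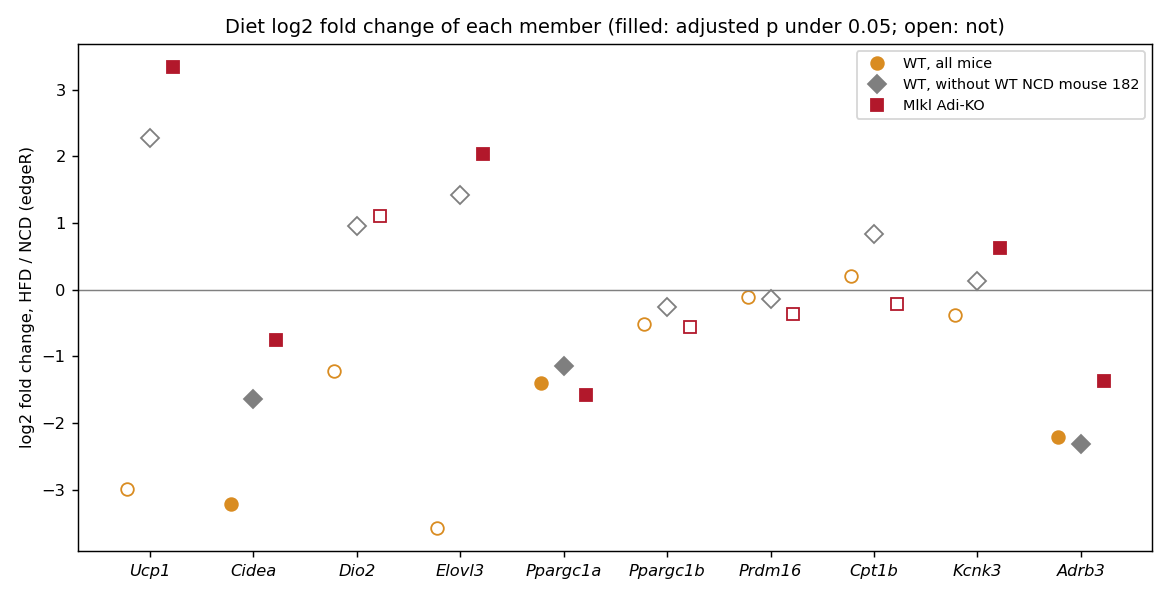
edgeR log2 fold change of HFD over NCD for each member, in WT mice with and without WT NCD mouse 182 and in Mlkl Adi-KO mice, filled where the adjusted p was under 0.05. Cidea, Ppargc1a and Adrb3 are filled and below 0 in all 3 series, whereas Ucp1 is at -2.99 with mouse 182 and 2.27 without it in WT, both open, and is filled above 0 in Mlkl Adi-KO.

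Whether the genotype difference changed with diet was tested over all 18 mice, a fit that shares its groups with the comparisons above. limma tested 6 members and called 0, as it called 0 of 14136 genes (0%), and edgeR called 0 of 10 and 0 of 25231 genes (0%). Of the members only Kcnk3 had an unadjusted limma p under 0.05 (0.76, SE 0.30, adjusted p = 0.350), against 13.2% of genes. The limma value of Kcnk3 was 0.43 without mouse 182 (limma adjusted p = 0.414), 0.32 on the TPM scale and -0.03 with both changes. By edgeR 4 members had an unadjusted p under 0.05 with mouse 182 and 1 did without it. The edgeR value of Ucp1 was 6.33 with mouse 182 and 1.10 without it (adjusted p = 0.785). Of the 6 members 4 lay above 0, against 48.2% of genes, with Elovl3 tested only because of mouse 182 and 3 of 5 above 0 without it, while 79 of the 80 respiratory chain genes lay above 0, with 0 called and 17 at an unadjusted p under 0.05, or 9 without mouse 182. On the TPM scale 15 of the 80 lay above 0, with the list median (-0.11) 0.25 above that of all genes (-0.35), and 3 did so without mouse 182.

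The library labelled WT NCD mouse 182 was the one with Ucp1 and 6 other members at their highest FPKM, given here as a description of 1 library. Its Ucp1 of 6.23 FPKM was 20.5 times the next highest visWAT value (0.303), Elovl3 18.7 times (0.898), Cidea 4.88 times (14.9), Dio2 4.23 times (0.225) and Kcnk3 1.98 times (13.5). Ppargc1a and Cpt1b were also highest there, by ratios of 1.10 and 1.25. By reads they were not, with 197 against 204 for Ppargc1a and 14 against 16 for Cpt1b. The FPKM sum of mouse 182, 309820, was exceeded in visWAT only by that of mouse 183. Its library size was 1.08 times its reads on genes, where others reached 1.40, and a smaller factor raises every FPKM of a library. The ranks given here were not repeated on the TPM scale. In FPKM 7 of 10 members were thus highest in mouse 182, or 6 of 9 without Ucp1, for which the library was singled out. Of 14136 genes averaging 0.5 FPKM or more, 15.2% were highest there. That filter was not applied to the members or the lists, so this share is not a like-for-like background. Adrb3 was ninth of 18 libraries, Prdm16 twelfth and Ppargc1b second. Of the 80 nuclear-encoded respiratory chain genes 66 were highest there (82.5%), as were 11 of 13 mitochondrially encoded genes.

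Other genes of brown fat followed in that library. Of 36 other brown and beige genes 13 were highest in it. Among them, chosen after their values were seen, were Cox8b at 268 FPKM (63.6 in the next library), Cox7a1 at 20.2 (7.68), Clstn3 at 26.9 (10.7) and Otop1 at 6.87 (3.93). Others lay closer to the next library, such as Pdk4 at 42.0 (34.1) and Nrg4 at 10.1 (9.04). Cox8b and Cox7a1 encode cytochrome oxidase isoforms of brown fat and muscle. The 6 seminal vesicle genes summed to 335 FPKM in mouse 182 (0.0257% of its reads), beside 255949 FPKM in mouse 183. They summed to 85.1 FPKM in Mlkl Adi-KO NCD mouse 197 and to at most 4.54 FPKM in the remaining visWAT libraries. None of 12 skeletal muscle markers was highest in mouse 182, and their summed level of 3.95 FPKM was the lowest of the 18 libraries. Mature adipocyte markers were highest there in 2 of 16 genes and macrophage markers in 0 of 12.

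The genes that stood out most in mouse 182, by the ratio of FPKM + 1 to the highest other library, were Elovl6, Sprr1a, Elovl3, Gm7049, Tlcd2, ENSMUSG00000120128, AA914427, Rdh11, Podnl1 and Acly. Elovl6, a fatty acid elongase, read 286 FPKM against 21.5 in the next library. Acly, which makes acetyl-CoA for lipid synthesis from citrate, read 1407 against 223 FPKM, and Slc25a1, the mitochondrial citrate carrier and a gene picked here for its value, read 1158 against 344 FPKM. Ucp1 itself ranked 14th by this ratio and Cidea 23rd. Gm7049 is annotated as a processed pseudogene, so that its reads may come from a near-identical gene.

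**Figure D5:**
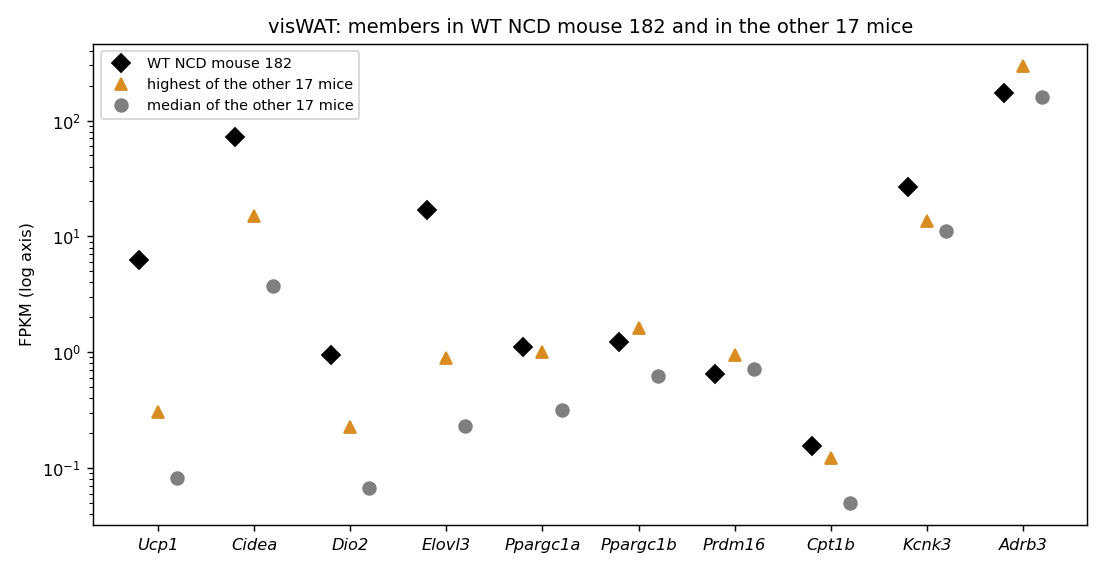
FPKM of each member in the visWAT library of WT NCD mouse 182, with the highest and the median of the other 17 mice, on a log axis. Ucp1 (6.23 against a next highest 0.303) and Elovl3 (16.7 against 0.898) are farthest above the others, while Adrb3, Prdm16 and Ppargc1b lie below the highest other mouse.

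Liver of the same mice served as a tissue without brown fat, and its levels are given with no test. Ucp1 was at 0 in 17 of 18 liver libraries, with 1 read in the other, and Dio2 likewise. Kcnk3 averaged 0.0985 to 0.121 FPKM and Prdm16 0.0586 to 0.169 FPKM over the 4 groups. Several members have a hepatic life of their own. Elovl3 read 310, 414 and 316 FPKM in the livers of WT NCD mice 165, 180 and 183 and 2.93 FPKM in that of mouse 182, whose liver thus stood far below the rest of its group. It averaged 255 ± 26.0 FPKM in Mlkl Adi-KO NCD liver, and 32.4 ± 6.96 and 22.7 ± 9.43 FPKM in WT and Mlkl Adi-KO liver on HFD. Cidea averaged 3.797 ± 4.95 FPKM in WT and 1.36 ± 2.65 in Mlkl Adi-KO liver on NCD, and 26.5 ± 8.71 and 6.46 ± 6.25 on HFD. Single HFD livers ranged from 17.2 to 37.0 FPKM in WT and from 0 to 14.4 FPKM in Mlkl Adi-KO mice. Ppargc1a averaged 4.62 ± 0.383 and 4.399 ± 2.15 FPKM on NCD and 1.66 ± 0.433 and 1.56 ± 0.0674 on HFD.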

How the data were processed

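RNA from epididymal visWAT and liver of 18 mice, 36 libraries, was sequenced after poly(A) selection. According to the study's methods, the authors trimmed reads with fastp, aligned them to mm39 with HISAT2 and counted them per gene with featureCounts 1.5.0-p3. The deposited tables hold raw read counts for the genes of each genotype comparison and FPKM for all genes, which the authors made by dividing counts by gene length and by a library size of their own. This size was 1.01 to 1.40 times the gene-assigned reads in visWAT libraries and 0.737 to 0.812 times in liver libraries. FPKM of liver and visWAT are therefore not on the same scale. The library size, found from the deposited counts, turned 100% of FPKM values back into whole reads (tolerance 0.01), and these reads entered edgeR and DESeq2. The strand setting and the annotation release were not given in the sources used here. The authors' comparison columns, with log2 fold changes and p-values, and 72 further per-sample columns were not used.

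Members and gene lists were chosen with earlier results of these data known. Groups came from the sample labels, and replicates were separate mice, the closest pair differing with a chi-square of 10.9 per gene. visWAT libraries held 21580696 to 30322171 reads on genes and liver libraries 20875463 to 25530574, which set the counting error of the low members. Each comparison was fitted with limma 3.58.1 (R 4.3.3, eBayes with trend) on log2(FPKM + 1) for genes averaging 0.5 FPKM or more, with Benjamini-Hochberg adjustment over all genes tested and a threshold of 0.05. Since FPKM + 1 understates the changes of low genes, edgeR 4.0.16 quasi-likelihood tests on genes with at least 10 reads were added after seeing the data. The fits were repeated with edgeR and DESeq2 1.42.0 on the filtered genes, a pseudocount of 0.1, no filter, the TPM scale, 1 fit over 18 mice, each mouse left out, and WT NCD mice 182 and 183 left out. Single members were also compared by two-sided exact permutation tests on log2(FPKM + 1) with scipy 1.17.1. A planned correlation over the 10 HFD mice is not given since they formed 2 clusters. Ratios of Ucp1 reads carry exact 95% intervals for counting error only.

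All members were named, and of each list up to 4 genes with the largest change among those called, or the 2 with the smallest p where none was called. For mouse 182 the 10 genes with the largest ratio to the highest other library were named. Tables were handled in Python 3.11.15 with pandas 2.3.3 and numpy 2.4.6, and plots drawn with matplotlib 3.10.9. On simulated counts for the HFD genotype comparison (13797 genes), limma recovered 91.7% of genes changed by 1 and 100% of genes changed by 2 on the log2 scale, with 9.80% false calls. These counts were drawn with the same fixed dispersion for every gene and without differences in cell composition between mice. The rates therefore do not give the detection rate in the real mice, where Adrb3 at 0.95 had limma adjusted p = 0.231. Several genes shared a symbol in 77 cases, none of them a member. Liver levels were described without a test.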

Additional observations from a re-analysis of the deposited data

Results flagged for a closer look

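Of 74 groups of 4 or 5 libraries examined for the 10 members, 12 held 1 library whose gap to the nearest other took up most of the range of the group. Chance gives about 1 in 20 groups, a rate that allows neither for read counts near 0 nor for 1 library recurring across genes. The 12 therefore do not measure an excess over chance. In visWAT 5 of the 6 were WT NCD mouse 182, with 6.23 FPKM of Ucp1, 72.5 FPKM of Cidea, 0.950 FPKM of Dio2, 16.7 FPKM of Elovl3 and 26.6 FPKM of Kcnk3. The sixth was Adrb3 in Mlkl Adi-KO NCD mouse 179, at 259 FPKM beside 291 to 297 FPKM in the other 3 mice. In liver, Cidea read 5.33 FPKM (100 reads) in Mlkl Adi-KO NCD mouse 199 and at most 0.0515 FPKM in the other 3. Liver Prdm16 read 0.260 FPKM in Mlkl Adi-KO NCD mouse 166 (others 0.0701 to 0.0986) and 0.423 FPKM in WT HFD mouse 155 (others 0.0219 to 0.0840). Liver Adrb3 in WT HFD mouse 155 was 2.75 FPKM (others 1.66 to 1.91). The last 2 libraries, Ucp1 in WT HFD mouse 154 (0.0342 FPKM) and Dio2 in WT HFD mouse 164 (0.00852 FPKM), rest on 1 read each against 0 in the rest of their group.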

How the results depend on the processing

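No paired analysis was possible because the groups compared within visWAT hold different mice, and mouse numbers are shared only between the 2 tissues. Over all member values and settings with a test, 535 kept their direction and their side of the threshold, 10 lost a call, 2 gained one and 25 changed sign. DESeq2 called 161 genes in the HFD genotype comparison (7 of the respiratory chain), 8 in the NCD genotype comparison, 60 respiratory chain genes in the WT diet comparison and 19 genes in the interaction. The TPM scale gave 1 gene on NCD, 1 member and 2 respiratory chain genes for diet in WT and 27 respiratory chain genes for diet in Mlkl Adi-KO. No filter gave 2 genes on NCD and 9 respiratory chain genes for diet in Mlkl Adi-KO, and 1 fit over 18 mice gave 15 genes on HFD, 1 on NCD and 9 of those respiratory chain genes. Without WT NCD mice 182 and 183 there were 3 genes on NCD, and edgeR on genes with at least 10 reads called 6 members for diet in Mlkl Adi-KO. With each mouse left out in turn, the counts of genes called ran from 3 to 16 for genotype on HFD (highest without Mlkl Adi-KO mouse 153), 0 to 1 on NCD (without WT mouse 182) and 0 to 14 for the interaction (without WT NCD mouse 165). The same omissions gave 1 (without WT HFD mouse 155 or 161 or WT NCD mouse 180) to 3 members and 25 (without mouse 180) to 63 (without mouse 183) respiratory chain genes for diet in WT, and 8 (without mouse 166) to 18 respiratory chain genes in Mlkl Adi-KO. Leaving out 1 mouse also moved several small log2 fold changes across 0. For genotype on HFD, Cidea ran from -0.00441 to 0.215, Prdm16 from -0.00993 to 0.0814 (-0.0200 on the TPM scale) and Ppargc1b from -0.00582 to 0.0649 (-0.0214 on the TPM scale). For genotype on NCD, Ppargc1a ran from -0.0426 to 0.138 and Ppargc1b from -0.0980 to 0.165. For diet in WT, Prdm16 ran from -0.0927 to 0.000376 (0.128 on the TPM scale) and Kcnk3 from -0.328 to 0.149, with 0.246 on the TPM scale, 0.223 without mice 182 and 183 and 0.133 by edgeR without mouse 182. By edgeR without mouse 182, Ucp1 was at 2.27 and Elovl3 at 1.42 in that comparison. In the interaction Ppargc1b ran from -0.144 to 0.119. The cause of these shifts was not tested. Depth limits Ucp1, Dio2, Elovl3 and Cpt1b most, each with few reads outside mouse 182.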
